A study of Mus musculus with 40 samples.

Results

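The 10 genes described here mark the endothelium of blood vessels or drive vessel growth: Vegfa, Kdr, Flt1, Tek, Pecam1, Cdh5, Cldn5, Emcn, Vwf and Sox17. They were taken by name, and by no rule on their values, from the 21938 protein-coding genes of the annotation. Earlier results of these data were known when they were chosen. Peaks of 4 histone modifications were read over each gene body and 20 kb on each side of it on GRCm38. The libraries came from the brown fat of C57BL/6N mice, all wild type and 20 weeks old, and chromatin immunoprecipitation sequencing (ChIP-seq) of H3K4me3, H3K27ac, H3K4me1 and H3K27me3 in 8 mice gave 32 peak lists. Mice 1 and 2 were warm on control diet (NCD), mice 4 and 5 spent 24 h at 4 °C on the same diet, mice 7 and 8 were warm on high-fat diet (HFD), and mice 10 and 11 had both HFD and the cold treatment. HFD lasted 12 weeks from 8 weeks of age, and no mouse carried an engineered allele. Warm mice stayed at the usual room temperature of the animal house, per the study's methods. The methods name the interscapular depot and the series text the inguinal one, and they can be read as joining the tissue of more than 1 animal, so that p-values here measure the spread between libraries. Ucp1 and Cidea, which define brown adipocytes, had H3K4me3 and H3K27ac at their start sites in all 8 mice.

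Brown fat burns fuel for heat and is densely supplied with capillaries, which bring oxygen and lipid and carry the heat away. Vessel growth in the tissue is driven by vascular endothelial growth factor A, the product of Vegfa, which adipocytes and other parenchymal cells release and which binds receptors on endothelial cells. H3K4me3 marks active or poised promoters, H3K27ac marks active promoters and enhancers, H3K4me1 marks enhancers, and H3K27me3 is the mark of Polycomb repression. The tissue was not sorted, so the peaks mix all of its cell types, and fewer endothelial cells cannot be told apart from less modified chromatin per cell.

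The sequences of 5 start regions of genes described below are shown and compared by motif content and base composition only. No peak result below was related to them. The RefSeq table of promoters (GRCm38.p6), which runs from 250 bases before to 50 bases after a start, held 6 of the 10 genes. Capitals mark, on either strand, AGGAAG or CGGAAG (the core bound by ETS factors), ACGTG (the core of the hypoxia response element) and GGGCGG (the GC box).
Vegfa, chr17:46032328-46032627, minus strand: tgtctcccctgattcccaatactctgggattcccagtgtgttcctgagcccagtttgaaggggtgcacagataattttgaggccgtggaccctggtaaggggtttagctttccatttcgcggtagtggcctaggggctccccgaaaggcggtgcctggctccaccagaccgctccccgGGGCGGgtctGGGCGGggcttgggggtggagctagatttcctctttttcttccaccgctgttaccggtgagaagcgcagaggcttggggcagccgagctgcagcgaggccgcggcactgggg
Kdr, chr5:75978406-75978705, minus strand: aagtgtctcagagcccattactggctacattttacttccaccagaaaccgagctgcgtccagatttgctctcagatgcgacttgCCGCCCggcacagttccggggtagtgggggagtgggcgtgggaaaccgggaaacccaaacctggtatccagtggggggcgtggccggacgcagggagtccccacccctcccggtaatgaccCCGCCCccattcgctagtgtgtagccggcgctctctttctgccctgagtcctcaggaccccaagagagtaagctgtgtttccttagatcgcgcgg
Flt1, chr5:147725962-147726261, minus strand: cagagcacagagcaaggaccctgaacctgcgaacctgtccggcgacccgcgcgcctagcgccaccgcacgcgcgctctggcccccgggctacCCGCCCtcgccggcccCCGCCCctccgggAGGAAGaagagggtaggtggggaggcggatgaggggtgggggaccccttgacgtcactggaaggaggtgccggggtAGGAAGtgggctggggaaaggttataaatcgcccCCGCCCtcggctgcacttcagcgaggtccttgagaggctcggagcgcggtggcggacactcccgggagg
Cldn5, chr16:18776597-18776896, plus strand: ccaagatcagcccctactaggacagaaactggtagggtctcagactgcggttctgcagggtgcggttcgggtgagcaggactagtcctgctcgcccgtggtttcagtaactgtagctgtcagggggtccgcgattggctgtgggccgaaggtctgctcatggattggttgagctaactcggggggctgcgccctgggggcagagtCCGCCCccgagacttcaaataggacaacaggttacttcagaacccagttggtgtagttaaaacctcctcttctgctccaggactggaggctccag
Emcn, chr3:137340828-137341127, plus strand: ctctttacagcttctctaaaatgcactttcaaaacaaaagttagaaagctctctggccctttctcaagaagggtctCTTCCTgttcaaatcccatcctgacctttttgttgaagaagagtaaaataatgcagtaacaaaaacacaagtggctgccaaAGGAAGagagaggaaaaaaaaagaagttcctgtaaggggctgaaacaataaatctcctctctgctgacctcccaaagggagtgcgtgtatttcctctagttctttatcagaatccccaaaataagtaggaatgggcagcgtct
Vegfa and Kdr each held 2 GC boxes and no ETS core, Flt1 held 3 GC boxes and 2 ETS cores, and Cldn5 held 1 GC box. Emcn held 2 ETS cores and no GC box, and Tek held neither. Of all 32851 promoters in the table, 35.7% held the GC box, 46.5% either ETS core and 19.6% ACGTG, which was in none of the 5 windows shown. A second Vegfa start in the table, chr17:46025114-46025413 and inside the gene, held 1 ACGTG and 1 GC box. The observed over expected CpG ratio was 0.78 at Flt1 (percentile 77.4 of all promoters), 0.689 at Kdr, 0.563 at Vegfa and 0.476 at Cldn5. It was 0.159 at Emcn (percentile 22.4) and 0.149 at Tek (percentile 20.7), so both genes had CpG-poor starts.

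The lists differed widely in length, which limits what a missing peak can say. H3K4me3 lists held 13517 to 24104 peaks, H3K27ac lists 3224 to 40604, H3K4me1 lists 12 to 27568 and H3K27me3 lists 20 to 6428. Mouse 7 (warm, HFD) had the shortest H3K4me3, H3K27ac and H3K4me1 lists, and mouse 10 (cold, HFD) had the shortest H3K27me3 list and the next shortest of the other 3 marks. The lists give no read depth, so a gene without a peak is called not detected and not unmodified. Fold below is the enrichment of a peak over input at its summit, as the authors' peak caller gave it, and its percentile is its place among all peaks of the same list.

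Of the 10 genes, 9 had an H3K4me3 peak within 1000 bp of an annotated start in at least 7 of 8 mice, against 53.9% of all protein-coding genes. H3K27ac was present at the start of 7 of 10 genes in at least 7 mice and of 9 of 10 in at least 6 mice, against 17.1% and 27.6% of all genes. In all 8 mice the counts were 5 of 10 for H3K4me3 (43.3% of all genes) and 2 of 10 for H3K27ac (3.74%). In mouse 7, 5 genes had H3K4me3 and 2 had H3K27ac at the start, whereas in the other 7 mice the counts were 9 to 10 and 8 to 9. Without mouse 7 the counts in every remaining mouse were 9 and 7 (53.6% and 17.0% of all genes), and without mice 7 and 10 they were 9 and 8 (57.3% and 26.3%). H3K4me1 lay at a start of Flt1 in mouse 2 and of Tek in mouse 11 only, and H3K27me3 at a start of Sox17 in mouse 5 only. The exception among the 10 genes was Vwf.

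**Figure D1:**
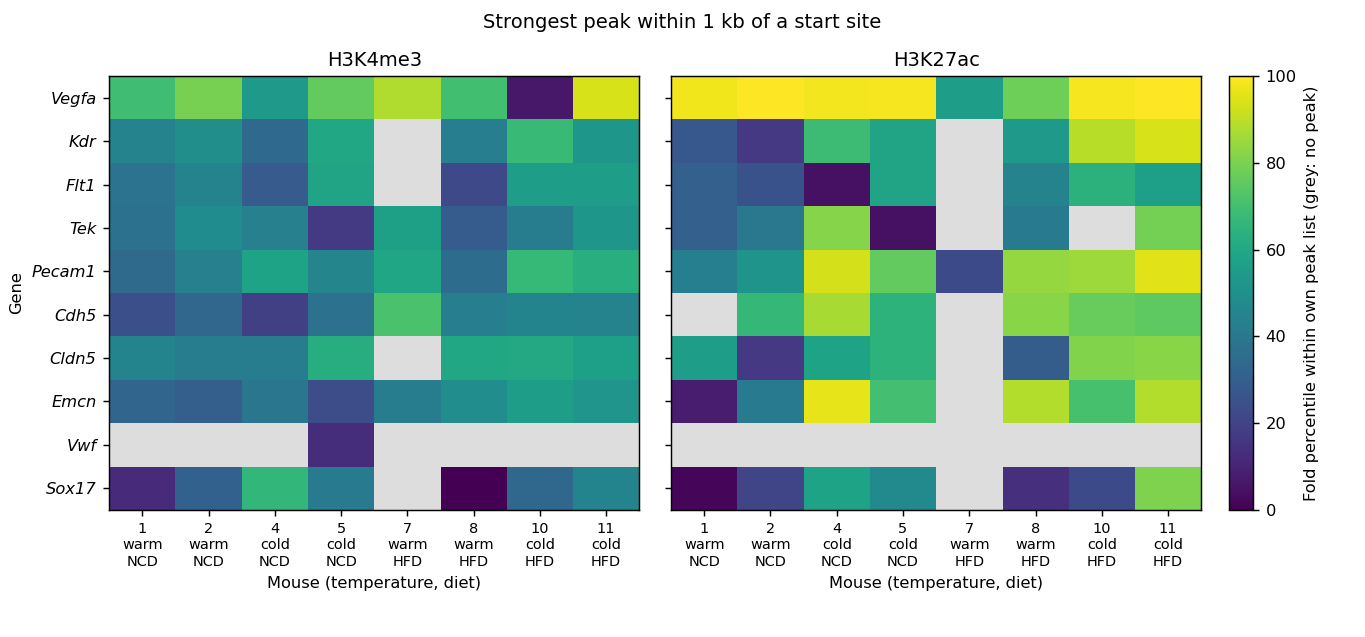
Strongest peak within 1 kb of an annotated start of each gene (rows) in each mouse (columns), for H3K4me3 and H3K27ac, coloured by the percentile of its fold within its own list, with grey for no peak. Vegfa has H3K27ac at percentile 97 or above in 6 of 8 mice, Vwf has a single H3K4me3 peak, and mouse 7 lacks most H3K27ac peaks.

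Vegfa (chr17:46016993-46032369, minus strand), the growth factor gene, had the largest median share of its window under H3K27ac and under H3K4me3 of the 10. H3K27ac covered 10392, 13017, 18051, 13572, 3424, 16629, 13133 and 22162 bases of its 55.4 kb window in mice 1, 2, 4, 5, 7, 8, 10 and 11. The median was 24.1% of the window, at percentile 99.5 of all genes, and H3K4me3 covered a median of 11.9% (percentile 95.4). The strongest H3K27ac peak at a start had folds of 5.9 to 28.7, and its width ran from 289 bp in mouse 7 to 7362 bp in mouse 11. Its summit lay 953 to 1976 bp downstream of the nearest start in the 8 mice, so the acetylation was centred inside the gene. The H3K4me3 peak there was 2191 to 7659 bp wide, with a median of 6174 bp, against medians of 922.5 to 3081 bp at the other genes detected in more than 1 mouse. The fold of that H3K4me3 peak was 77.9 in mouse 5 and 3.58 in mouse 10, whose percentile of 6.42 was the lowest of the 8 mice although the peak there was 6518 bp wide. H3K27ac was also found downstream of the gene's 3′ end in all 8 mice, at chr17:46004980-46006913 and chr17:46007903-46011807. H3K4me1 was detected in the window in mice 2, 4, 5, 8 and 11, with 3217, 861, 3075, 502 and 1148 covered bases.

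Among the receptors, Kdr (chr5:75932827-75978458, minus strand), which carries the main growth signal of Vegfa, showed the widest range between mice. H3K27ac covered 396, 1603, 22259, 4701, 0, 13657, 18640 and 36883 bases of its 85.6 kb window, in the mouse order used above. Mice 4, 8, 10 and 11 had the highest values, across both temperatures and diets, and mice 1, 2 and 7 the lowest. The median of 10.7% of the window was at percentile 95.8 of all genes. The 26 H3K27ac regions of the Kdr window, each a union of overlapping peaks of the 8 mice, lay mostly in the gene body, with 11 touching an exon and 11 within introns. H3K4me1 was not detected in the Kdr window in any mouse.

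Flt1 (chr5:147561604-147726011, minus strand), a receptor that also serves as a decoy for Vegfa, had H3K4me3 and H3K27ac at its start in every mouse but mouse 7. H3K27ac covered 2507, 1329, 14720, 3654, 0, 936, 4103 and 12692 bases of its 204 kb window, and all 4 cold mice (4, 5, 10 and 11) exceeded all 4 warm mice. A region centred 79746 bp into the gene, chr5:147644603-147647927, had H3K27ac in 7 mice. Tek (chr4:94739289-94874976, plus strand), the angiopoietin receptor, had H3K4me3 at its start in all 8 mice and H3K27ac in 6, and its H3K27ac covered a median of 0.47% of the window, at percentile 48.2. Its H3K4me3 summits lay within 171 bp of a start in all 8 mice.

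Of the junction and surface genes, Pecam1 (chr11:106654217-106750628, minus strand), an adhesion molecule of endothelial contacts, had both marks at a start in all 8 mice. That start was an internal one, since the region with H3K4me3 was centred 36871 bp downstream of the gene's outermost 5′ end. H3K27ac covered 1323, 4770, 23859, 8177, 280, 7950, 6741 and 20106 bases of the Pecam1 window, with 20 and 24 peaks in mice 4 and 11 against 1 in mouse 7. Parts of Milr1 and Polg2 lie in that window, and peaks over them are counted in it.

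Cdh5 (chr8:104101625-104144511, plus strand), the cadherin of endothelial junctions, had H3K4me3 in all 8 mice and H3K27ac in all but mice 1 and 7. H3K27ac covered 0, 2761, 7798, 4144, 0, 2929, 3834 and 6327 bases, and again no warm mouse reached a cold one. Upstream of its 5′ end, H3K27ac lay at chr8:104094527-104095700, chr8:104095939-104096727 and chr8:104096945-104097988 in 5, 5 and 6 mice, with all 4 cold mice among them each time. Cldn5 (chr16:18776847-18778262, plus strand), a tight-junction gene, had H3K27ac over 1806, 906, 6171, 3068, 0, 931, 3474 and 4150 bases. In mouse 4 a single peak of 5604 bp spanned the whole 1.42 kb gene. Part of Cdc45 lies in the Cldn5 window. Emcn (chr3:137341067-137432185, plus strand), an endothelial sialomucin, had narrow marks, with a median H3K4me3 width of 922.5 bp and a median H3K27ac width of 422 bp at the start.

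Sox17 (chr1:4490931-4497354, minus strand), a transcription factor of arterial endothelium, had both active marks at its start in 7 mice and H3K27me3 in 1. In mouse 5, which had the longest H3K27me3 list, H3K27me3 covered 1900 bases of the window in 4 peaks, 1 of them over an exon and 3 around the starts, with a fold of 6.95 at the strongest start-site peak (percentile 90.3). The same mouse had H3K4me3 (fold 17.9) and H3K27ac (fold 6.61) at the start. A further H3K27me3 peak of 232 bp lay upstream in mouse 8, and among the other 9 genes only Flt1 had one, of 331 bp, in mouse 5.

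Vwf (chr6:125546774-125686679, plus strand), which encodes von Willebrand factor of endothelial storage granules, was the gene least detected. An H3K4me3 peak of 242 bp (fold 5.9, percentile 13.1) lay 103 bp from a start in mouse 5 alone, and no mouse had H3K27ac there. H3K27ac in the window amounted to 249 bases in mouse 4 and 240 in mouse 11. H3K4me3 was nevertheless present inside the gene, in an intron at chr6:125572875-125573542, in 6 of 8 mice. The Vwf window holds part of Ano2.

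Presence of peaks at the start of the 10 genes did not follow temperature or diet in any mark, where a start follows a factor if a peak was found in each of 4 mice at one level and in 0 of 4 at the other level. H3K27ac was at the start in all 4 cold mice for 8 of 10 genes and in all 4 warm mice for 2, and in all 4 NCD mice for 8 and all 4 HFD mice for 2. Of all 21938 genes, 3964 had it in all 4 cold, 846 in all 4 warm, 5916 in all 4 NCD and 821 in all 4 HFD mice. Mouse 7, with the shortest list, belongs to both the warm and the HFD group, and the counts without it are given above. By Fisher's exact test, two-sided on 4 against 4 mice, the smallest p at any of the 10 starts was 0.429, and the adjusted p was 1 for H3K4me3 and H3K27ac. Among all genes with a peak in 1 to 7 mice, 0.127% followed temperature and 0.549% diet for H3K4me3, and 0.129% and 0.109% for H3K27ac. The shares were 0.0% and 0.061% for H3K4me1, and 0.0% and 0.0% for H3K27me3. The smallest p that this test allows with 4 against 4 mice is 0.0286.

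The extent of H3K27ac differed more. The number of bases under H3K27ac peaks was higher in every cold mouse than in any warm mouse at 4 of the 10 genes, Cdh5, Flt1, Cldn5 and Sox17, against 1.19% of the 14980 genes with any covered base. At Flt1 the mean was 8792.25 ± 5740 bases in cold and 1193 ± 1040 in warm mice (SD, n = 4 each), a ratio of 7.37 (exact permutation test, two-sided, p = 0.0286). At Cdh5 the means were 5525.75 ± 1880 and 1422.5 ± 1640 bases (ratio 3.88), at Cldn5 4215.75 ± 1380 and 910.75 ± 737 (ratio 4.63), and at Sox17 2799.5 ± 1420 and 570.25 ± 532 (ratio 4.91), each with the same p by the exact permutation test. The 0.0286 is the smallest p that 4 against 4 mice can give, and the Benjamini-Hochberg adjusted p was 1 for each of the 4 genes, so none passed the adjustment over all genes. The mean was higher in cold mice at all 10 genes, with a median ratio of 4.37, and at 78.5% of all genes, with a median ratio of 1.33.

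Pecam1 and Kdr came next, with ratios of 4.11 and 5.27 and p = 0.0571 for each by the exact permutation test, and in both genes the warm mouse 8 lay above 1 cold mouse. At Vegfa the cold mean was 16729.5 ± 4250 bases and the warm mean 10865.5 ± 5580 (ratio 1.54, exact permutation p = 0.143), and the groups overlapped. Within NCD and within HFD the cold minus warm difference, whose sign the separation fixes, was 4590.5 and 3616 bases at Cdh5 and 3263.5 and 3346.5 at Cldn5. Whole H3K27ac lists covered 9.79 to 36.4 Mb in cold and 1.63 to 28.0 Mb in warm mice, which moves with the result. Per Mb covered by the whole list the separation held at Cdh5 and Sox17 only, with only those peaks whose −log10 q was 5 or more at Cldn5 only, and within the 3000 strongest peaks of each list at Vegfa only, where Cdh5, Cldn5 and Sox17 had no covered base left. With the stricter q and the strongest peaks, 0.557% and 1.76% of all genes were higher in every cold mouse. Under these 3 settings in turn, the cold mean was higher at 9, 9 and 5 of the 10 genes and at 51.2%, 75.7% and 60.0% of all genes. Per Mb, 2.85% of all genes were higher and 0.961% lower in every cold mouse, against 1.19% and none before scaling. Leaving out 1 mouse took the exact permutation p past 0.05 at Flt1 for each of the 4 warm mice (0.0857 to 0.114), at Cdh5 for mice 1, 4 and 7 and at Sox17 for mouse 11 (0.0571 for each). Cold and warm mice stayed apart in each case, because leaving out a mouse cannot undo a full separation, and only the p rose. At Cldn5 the exact permutation p stayed at 0.0286 whichever mouse was left out. The cold mice 4 and 11 held the highest 2 values at every one of the 10 genes. Their lists held 30544 and 40604 H3K27ac peaks, against 30495 in the cold mouse 5 and 33798 in the warm mouse 8.

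**Figure D2:**
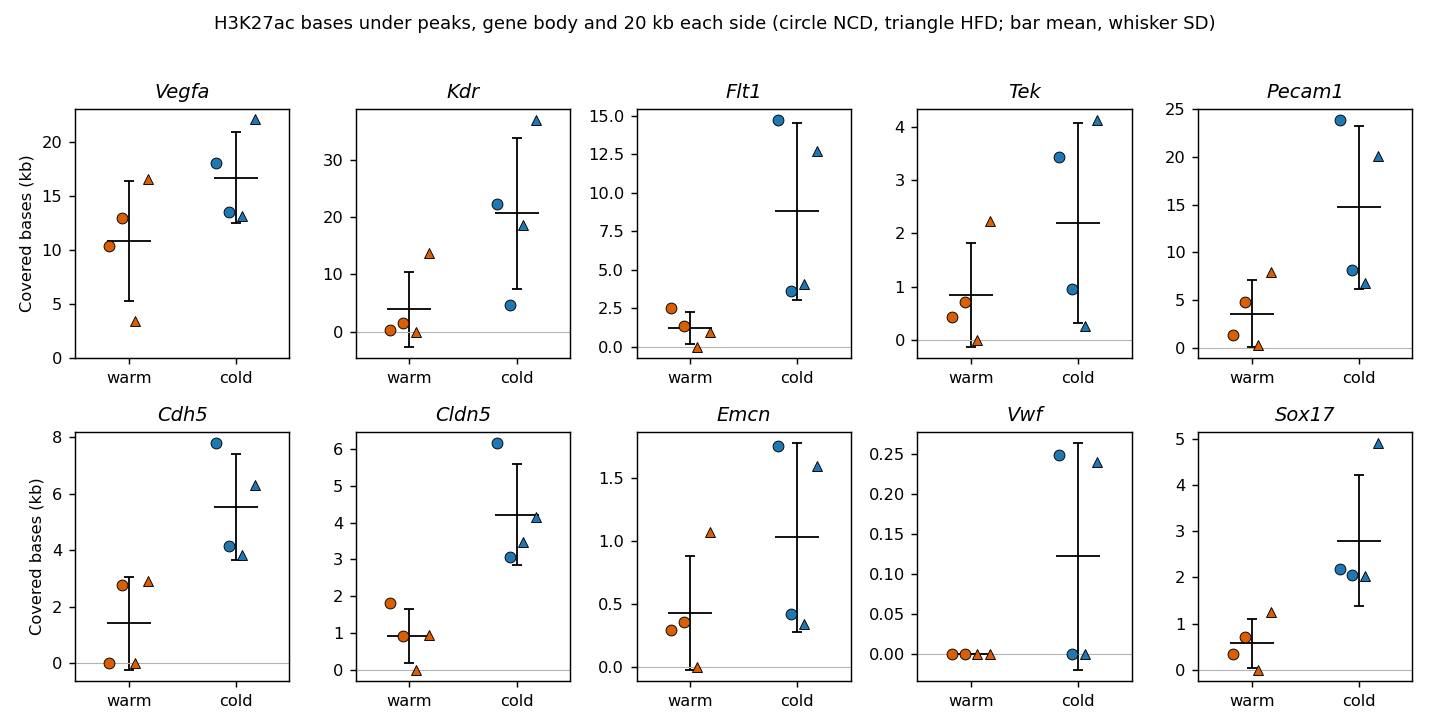
Bases under H3K27ac peaks (kb, vertical axis) in the window of each gene for warm (orange) and cold (blue) mice, with circles for NCD and triangles for HFD, and the mean and SD of the 4 mice of each group. Cold and warm mice do not overlap at Flt1, Cdh5, Cldn5 and Sox17, and the cold mice 4 and 11 are the highest 2 points of every gene.

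Individual regions inside these windows seldom followed temperature. Of 112 H3K27ac regions in the 10 windows, 48 were found in 1 mouse only and 2 had a peak in all 4 cold and no warm mice, an intronic region of Kdr at chr5:75938629-75940328 and an intronic region of Flt1 at chr5:147657215-147657780. The Kdr region began directly after another at chr5:75937638-75938625 in mice 4 and 11. The warm mouse 8 had a peak close by, at chr5:75937087-75937330. The cold-only pattern there thus depends on how neighbouring peaks were split, and joining them was not tried in this window. Across the genome 0.326% of 47510 H3K27ac regions followed temperature and 0.0884% followed diet. No region of the other marks in the 10 windows followed either factor.

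For H3K4me3, covered bases were higher in every cold than in any warm mouse at Cldn5 alone, against 0.48% of 16864 genes. The values at Cldn5 were 2639, 2782, 0 and 2035 bases in warm mice 1, 2, 7 and 8 and 3566, 3166, 3542 and 3576 in cold mice 4, 5, 10 and 11, a mean of 3462.5 ± 198 against 1864 ± 1280 bases (SD, n = 4 each, exact permutation p = 0.0286, adjusted p = 1). Within the gene body alone the Cldn5 difference was 367.25 bases with p = 0.143 by the same exact test. For diet, H3K4me3 at Vwf was lower in every HFD than in any NCD mouse, with 0, 0, 202 and 433 bases against 577, 530, 603 and 1336, and 2.66% of genes showed that pattern (exact permutation p = 0.0286, adjusted p = 0.675). Per Mb of the list, H3K4me3 was higher in every cold mouse at 2.35% and lower at 2.43% of genes, and higher in every HFD mouse at 5.44% and lower at 6.27%, with Cldn5 and Vwf still separated. In mice 1, 2 and 4 these bases lay in the intron named above. Without mouse 5 the p was 0.0571, with HFD and NCD mice still apart, and within the 13000 strongest peaks of each list the p was 0.429 by the exact permutation test.

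No gene of the 10 separated by diet for H3K27ac, where 0.447% of all genes did, and the HFD mean was above the NCD mean at 5 genes and below it at 5, against 18.6% of all genes above. For H3K4me1 none separated by temperature (0.0% of all genes) or diet (0.218%), and for H3K27me3 none by temperature (0.0%) or diet (0.106%). The difference of the cold effect between diets was tested by exact permutation for 20 combinations of gene and mark. The smallest p was 0.0571 (H3K4me3 at Emcn, exact permutation test) and the smallest adjusted p was 0.98.

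Upstream of Vegfa, 3 H3K4me3 regions, 2 H3K27ac regions and no H3K4me1 region had a peak in at least 4 mice, the promoter region included. Within 100 kb before its 5′ end, 4 H3K4me3 regions, 3 H3K27ac regions, 4 H3K4me1 regions and no H3K27me3 region were found. The promoter region itself was one of these for each of H3K4me3 and H3K27ac, and reached 712 bp and 494 bp upstream. The next region in at least 4 mice was H3K4me3 at chr17:46073776-46074285, which starts 41.4 kb upstream inside the noncoding RNA gene AC110562.2 and was found in mice 1, 2, 4, 5 and 11 with folds of 4.69, 5.13, 4.24, 17.1 and 6.87. It was present in all 4 NCD mice and 1 of 4 HFD mice, and in 3 cold and 2 warm mice. The 300 bases around its highest summit, given because no other upstream region lay outside a protein-coding gene in at least 4 mice, held no ETS core, ACGTG or GC box.
Vegfa upstream, chr17:46073835-46074134, plus strand: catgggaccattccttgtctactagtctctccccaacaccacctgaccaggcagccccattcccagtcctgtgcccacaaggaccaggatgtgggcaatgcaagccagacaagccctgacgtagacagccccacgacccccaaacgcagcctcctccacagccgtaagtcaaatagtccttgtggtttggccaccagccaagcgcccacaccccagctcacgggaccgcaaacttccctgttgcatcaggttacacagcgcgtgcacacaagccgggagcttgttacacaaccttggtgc
H3K4me1 lay over the same place in mice 2 and 5, and H3K27ac in none.

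The remaining upstream region with both active marks, chr17:46110403-46111930 for H3K4me3, was the start of Mrps18a, with H3K4me3 in all 8 mice and H3K27ac in 6. A candidate closer to the gene, at chr17:46056217-46056926 and 23.8 kb upstream, had H3K27ac in warm mice 2 and 8 (folds 6.41 and 3.76) and H3K4me1 overlapping it in mice 2 and 5, below the 4 mice set for naming and given because it was the only H3K27ac between the promoter and Mrps18a. No upstream region followed temperature or diet, though without mouse 11 the H3K4me3 region at 41.4 kb was in all 4 NCD and none of the 3 HFD mice left. Across all regions 0.16% of H3K4me3 regions followed temperature and 0.603% diet, and of H3K4me1 regions 0.0% and 0.125%.

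**Figure D3:**
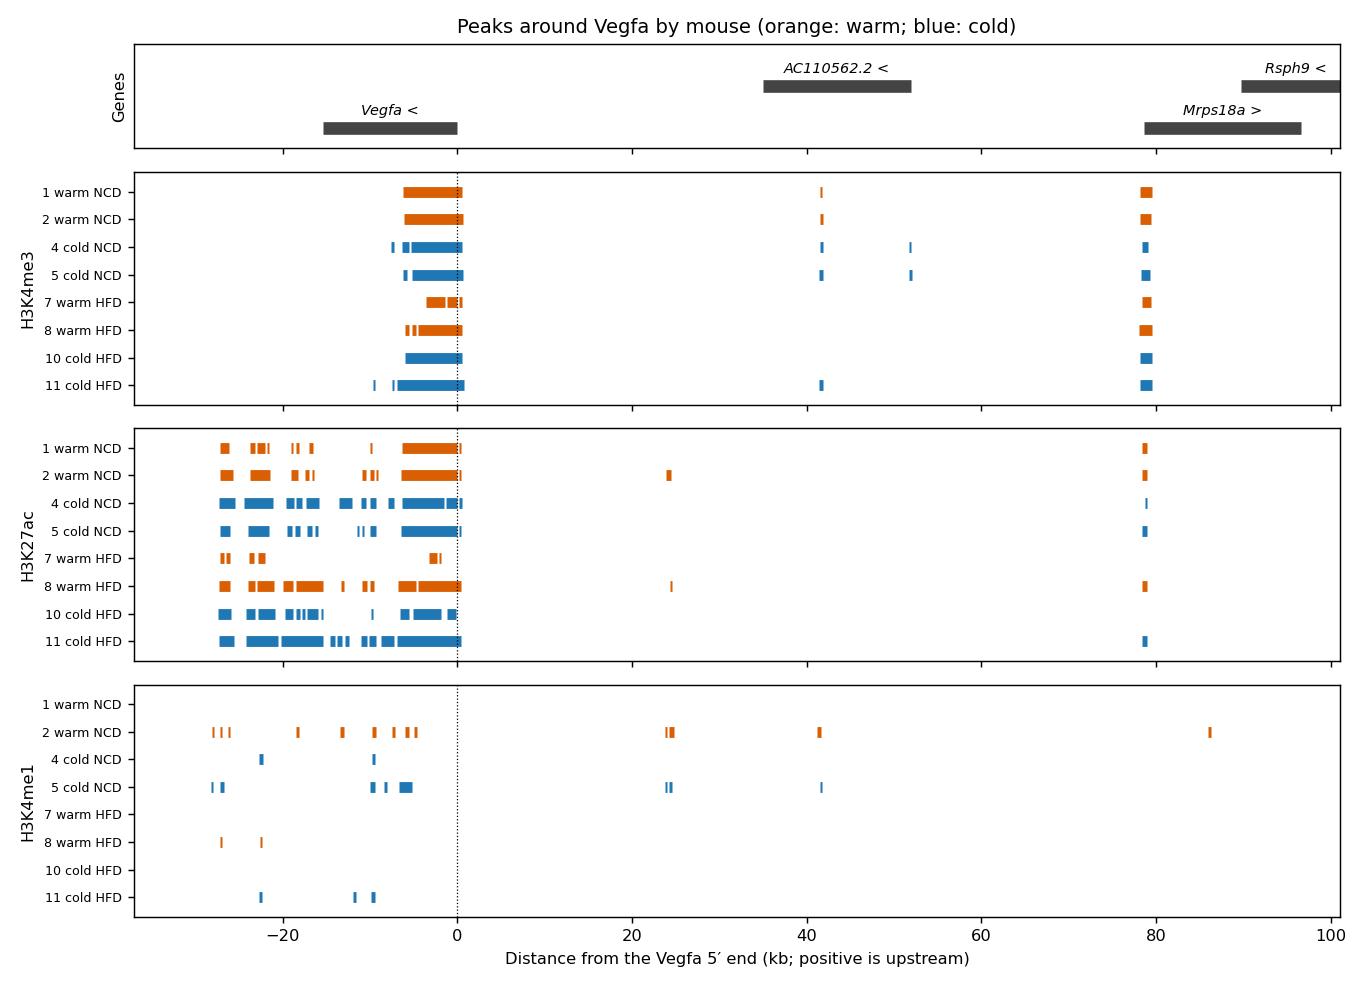
Peaks of H3K4me3, H3K27ac and H3K4me1 by mouse along the Vegfa window and the 100 kb upstream, with distance from the gene's 5′ end in kb on the horizontal axis and annotated genes on top. Bars are peaks, orange in warm and blue in cold mice. H3K27ac lies within the gene and downstream of it in all 8 mice, with the fewest peaks in mouse 7, while only the regions near 23.8, 41.4, 51.7, 78.3 and 86.0 kb lie upstream of the promoter.

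The other genes of these pathways were read in the same way. Of 7 further VEGF ligands and receptors, 5 had H3K4me3 and 3 had H3K27ac at the start in at least 7 mice. Tie1 and Flt4 each stand in 2 of the lists below. The genes with H3K27ac were the ligand gene Vegfb and the coreceptor genes Nrp1 and Nrp2, while Vegfd, a lymphatic growth factor, had H3K4me3 in 1 mouse. Of 5 angiopoietin and Tie genes the counts were 4 and 1, and Angpt4, a Tek ligand, had no H3K4me3 in any mouse. All 14 endothelial transcription factors had H3K4me3 in at least 7 mice and 11 had H3K27ac, with Mecom in all 8 mice for both and Hhex in 7 and 2. All 6 hypoxia response genes had H3K4me3 and 2 had H3K27ac in at least 7 mice, namely Egln1, an oxygen sensor, and Epas1, a hypoxia-inducible factor. All 10 Notch and BMP genes had H3K4me3 and 3 had H3K27ac, namely Notch4 and the endothelial BMP receptor genes Eng and Acvrl1.

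Of 14 other endothelial markers, 12 had H3K4me3 and 9 had H3K27ac in at least 7 mice, and Plvap, a capillary fenestra protein, resembled Vwf with H3K4me3 in 1 mouse and H3K27ac in none. H3K27ac at the start of Cd34, a surface marker of endothelial and progenitor cells, followed temperature, with a peak in all 4 cold and no warm mice. Of all genes with H3K27ac at the start in 1 to 7 mice, 0.129% followed temperature. That pattern has the smallest p Fisher's exact test allows here, which cannot pass the adjustment. Bases under H3K27ac peaks were higher in every cold than in any warm mouse at 4 of the 14 (Esam, Robo4, Cd93 and Gpihbp1), at 3 of 10 Notch and BMP genes (Dll4, Eng and Acvrl1) and at 1 of 14 transcription factors (Gata2), each with an adjusted p of 1. At p of 0.05 or less by the exact permutation test, these 3 lists held no gene without mouse 7, and 8, 5 and 4 genes without mouse 10. The genes named above still separated without mouse 7, since leaving out a mouse cannot undo a full separation, and only their p rose. The share of all genes was 1.19% with all mice, 0.174% without mouse 7 and 5.57% without mouse 10. Per Mb covered by the whole list, the 3 lists held 4, 1 and 3 separated genes, of those named only Robo4, Dll4 and Gata2. With −log10 q of 5 or more they held 4, 1 and 0, of those named only Gpihbp1 and Acvrl1. Within the strongest peaks of each list they held 1, 1 and 0, none of those named. The shares of all genes under these settings are given above with the 10 genes. Gpihbp1, the capillary anchor of lipoprotein lipase, had 9025 ± 1750 bases in cold and 4095.75 ± 2580 in warm mice (SD, n = 4 each, exact permutation p = 0.0286).

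H3K4me3 bases of the listed genes separated in fewer cases. They were higher in every cold mouse at Ets2, an ETS factor gene, and at Eng, against 0.48% of all genes. By diet, Dio2 and Ppargc1a, brown adipocyte genes of thyroid hormone activation and mitochondrial biogenesis, were higher in every HFD mouse, a direction found at 0.0652% of all genes. At Ppargc1a the mean was 6194.25 bases in HFD and 3225.75 in NCD mice. Cspg4, Myh11, Col1a1 and Acta1 were lower in every HFD mouse, a direction found at 2.66% of all genes. Only 19.8% of all genes had a higher H3K4me3 mean in HFD mice. Angpt2, a Tek ligand, was lower in every HFD mouse for H3K27ac, as were 0.447% of all genes. Each of these had p = 0.0286 by the exact permutation test and an adjusted p of 0.675 (H3K4me3 by diet) or 1 (the rest).

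Genes of other cells differed in detection. All 10 brown adipocyte genes had H3K4me3 and 8 had H3K27ac in at least 7 mice. With all peaks none of them separated by temperature, and the median cold to warm ratio was 1.45 for H3K27ac. Within the 3000 strongest H3K27ac peaks of each list, Ucp1 was higher in every cold than in any warm mouse. The share of all genes under that setting is given above with the 10 genes. Of 8 pericyte and smooth muscle genes 2 had H3K4me3 and 1 had H3K27ac in at least 7 mice (Cspg4 for both), and Rgs5 and Acta2 had neither mark at the start in any mouse. Of 6 macrophage and blood genes 1 had H3K4me3 in at least 7 mice and none H3K27ac, with Adgre1 and Lyz2 at 0 mice for both. Lymphatic genes numbered 2 of 4 for H3K4me3 (Prox1 and Flt4) and 0 for H3K27ac. Preadipocyte and fibroblast genes numbered 2 of 5 and 1 of 5, the latter Ly6a. No skeletal muscle gene reached 7 mice, and Acta1, the skeletal actin, had H3K4me3 at the start in all 4 NCD mice and no HFD mouse. Of all genes with H3K4me3 at the start in 1 to 7 mice, 0.549% followed diet, and the pattern cannot pass the adjustment. Alb, Neurod1 and Ins2, genes of liver, neurons and pancreatic islets, had neither H3K4me3 nor H3K27ac at the start in any mouse. In their wider windows, Neurod1 and Ins2 had some H3K4me3 bases and Ins2 some H3K27ac bases. Of the genes with any H3K27ac base, 0 of 7 pericyte, 0 of 2 lymphatic, 0 of 3 macrophage and 0 of 4 preadipocyte genes separated by temperature, and no muscle gene had a value. Since 1.19% of all genes were higher in every cold mouse, 0 in lists this short, the brown adipocyte list included, says little. The cold mean was higher at 7 of 7, 2 of 2, 2 of 3 and 2 of 4 genes of these lists in turn, against 78.5% of all genes.

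**Figure D4:**
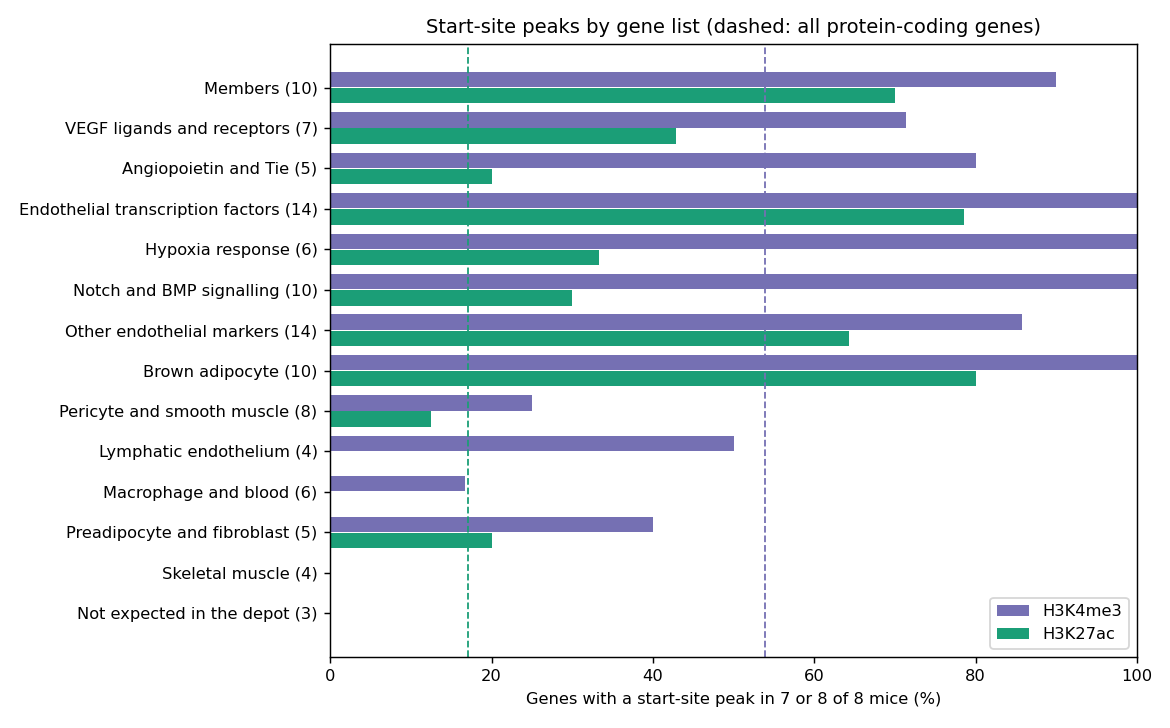
Percentage of the genes of each list (number of genes in brackets) with a start-site peak in 7 or 8 of 8 mice, for H3K4me3 and H3K27ac, with dashed lines for all protein-coding genes (53.9% and 17.1%). Endothelial, hypoxia and brown adipocyte lists exceed the dashed H3K4me3 line, and the lists of pericyte, lymphatic, macrophage, fibroblast and muscle genes fall below it.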

How the data were processed

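ChIP-seq of 4 histone marks was measured in brown fat of 8 mice, with 8 inputs that are not analysed here beyond the authors' use of them. Per the methods and the submitters' processing notes, reads were trimmed with cutadapt, mapped to GRCm38 with Bowtie2, and narrow peaks were called with MACS2 for each library against the input of the same mouse. No version or threshold is named in these sources. The deposited lists give the fold enrichment of each peak over background, a ratio, and its −log10 p and −log10 q as the authors' caller wrote them, and the lowest −log10 q of any list was 1.3. Short lists detect fewer peaks, and the read depth is unknown, so no interval on a missing peak could be given.

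Genes came from GENCODE M21. A gene was marked where a peak overlapped 1000 bp around an annotated start by at least 1 base. Covered bases are the union of peaks over the gene body and 20 kb each side. Regions are unions of overlapping peaks of the 8 mice. The groups were 4 cold against 4 warm and 4 HFD against 4 NCD mice. Presence was compared by Fisher's exact test and covered bases by an exact permutation test over 70 assignments, two-sided, with Benjamini-Hochberg adjustment over all genes with a value. The named genes are the 10 genes and, of the other lists, those that followed a factor plus at most 4 examples a list by presence, with every gene whose H3K4me3 or H3K27ac bases separated the groups. Other genes named for their low presence were chosen after their values were seen. The 10 genes and all lists were chosen with earlier results of these data known. Python 3.11.15, pandas 2.3.3 and scipy 1.17.1 were used, and the scripts were tested on simulated data. The alternatives tried are given in the closing section.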

Additional observations from a re-analysis of the deposited data

Results flagged for a closer look

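In 79 sets of 4 mice (10 genes, H3K4me3 and H3K27ac, 4 groups, where the values differed), the mouse farthest from the others was set against Dixon's critical value of 0.829 for 4 samples. Of these, 8 passed it. For independent, normally distributed values about 1 in 20 would pass, or 3.95 of 79. Each mouse stands in a temperature and a diet group here, and a set with 0 in all but 1 mouse always passes. The 8 can therefore not be set against 3.95. For H3K4me3 covered bases, mouse 11 had 2267 at Tek against 936 to 1058 in the other cold mice. Mouse 5 had 1336 at Vwf against 530 to 603 in the other NCD mice, and 3166 at Cldn5 against 3542 to 3576 in the other cold mice. For H3K27ac, the warm mouse 8 had 13657 bases at Kdr while the other warm mice had 0 to 1603. At Vwf, mouse 11 had 240 bases among HFD mice and mouse 4 had 249 among NCD mice, with 0 in the other mice of each group. Mouse 11 had 4920 at Sox17 against 2027 to 2193 in the other cold mice, which adds to the cold mean given for that gene. Mouse 4 had 1757 at Emcn against 294 to 422 in the other NCD mice.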

How the results depend on the processing

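No paired analysis was possible because the mouse numbers are not shared between conditions. Genes of the 10 with H3K4me3 at the start in every mouse numbered 5, against 43.3% of all genes. They numbered 2 when the peak summit had to lie within the distance (41.5% of all genes). They numbered 2 with −log10 q of at least 5 (31.6%) and 1 with equal numbers of top peaks, 13000 and 3000 per list (40.0%). In each of these settings the share of the 10 was below that of all genes. Leaving out 1 mouse gave 5 to 9. Without mice 7 and 10, an alternative added after seeing the data, they numbered 9 (57.3%). For H3K27ac they numbered 2, against 3.74% of all genes. They numbered 1 within 500 bp (2.89%), 0 by summit (3.11%) and 0 at the gene's 5′ end only (3.24%). With −log10 q of at least 5 they numbered 1 (1.32%), and with top peaks 1 (1.58%). Leaving out 1 mouse gave 2 to 7, and without mice 7 and 10 they numbered 8 (26.3%). With top peaks, 2 H3K4me3 starts (Cdh5 and Emcn) followed diet. The share of all genes following diet under that setting was not computed, so the 2 are not read as a result about these genes.

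Genes with H3K27ac bases differing by temperature (4) numbered 1 with −log10 q of at least 5, 2 per Mb of the list, 1 with top peaks, and 2 to 5 leaving out 1 mouse. For H3K4me3 and temperature (1) they numbered 0 over the gene body, 2 with top peaks and 0 to 2 leaving out 1 mouse. For H3K4me3 and diet (1) with Vwf lower in HFD, they numbered 2 per Mb (Vwf lower, Pecam1 higher). They numbered 2 with top peaks (Cdh5 and Emcn, both higher) and 0 to 3 leaving out 1 mouse. The share of all genes is not given for these counts, so they are not read as a result about the 10 genes. Without mice 7 and 10, HFD and NCD mice did not overlap at 4 genes (3 higher, Vwf lower). That setting leaves 2 HFD mice against 4 NCD mice. Its exact permutation test cannot reach the p required for the other counts, so these 4 genes were counted by non-overlap alone. The 4 can therefore not be set against the other counts. For H3K4me1 and diet (0) they numbered 0 to 1, and for Vegfa upstream regions following diet (0) also 0 to 1, leaving out 1 mouse. The difference in cold effect between diets (0) was 1 with −log10 q of at least 5 (Flt1) and 1 with top peaks (Vegfa), both for H3K4me3.

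At Vegfa the H3K27ac difference of cold minus warm mice was 5864 bases, −247.619 per Mb of the list, 2791.5 with top peaks and 3383.5 to 7785.17 leaving out 1 mouse. HFD minus NCD was 79 bases (ratio 1.01), 540.887 per Mb (ratio 1.86), −1196.5 over the gene body, −840 with top peaks and −2696 to 3550 leaving out 1 mouse. For H3K4me3 it was −548 bases, 47.9 per Mb and −1234.67 to 261.333 leaving out 1 mouse. The cause of these moves was not tested.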

Other observations

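Inside Sox17, H3K4me3 lay over an exon as well as at the start, at chr1:4491548-4493823, in the same 7 mice. Downstream of Kdr, H3K27ac was found beyond the 3′ end at chr5:75916640-75919016 in all 4 cold mice and mouse 8, and at chr5:75921563-75923981 in mice 4, 8, 10 and 11. Within Vegfa, H3K4me1 at chr17:46022363-46023042 was the only H3K4me1 region of the 10 windows found in at least 4 mice, with folds of 7.6, 5.78, 8.74 and 5.08 in mice 2, 4, 5 and 11, and H3K27ac lay over the same place in 7 mice. The start of Nos3, which makes the vessel-relaxing gas nitric oxide, had H3K4me1 in 5 mice, against 0 to 3 mice at the other endothelial markers. Prox1, the lymphatic regulator, had H3K4me3 in 7 mice and H3K27me3 in 2 at its start, and Tal1, a blood and endothelial factor, in 7 and 2.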
